A study of Mus musculus with 18 samples.

Results

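The retinoic acid pathway was examined through 10 genes out of the 21887 protein-coding genes of the mouse annotation. They were the receptors Rara, Rarb and Rarg, the synthesis enzymes Rdh10, Aldh1a1, Aldh1a2 and Aldh1a3, and the breakdown enzymes Cyp26a1, Cyp26b1 and Cyp26c1. They were listed by their role in the pathway, with earlier results of these data known. For each gene the length of DNA under H3K4me3 peaks was taken within 5 kb of its marked gene end, the end of the gene with more peak-covered DNA within 1 kb over all 9 libraries. H3K4me3 is a histone mark found at active and poised promoters, and it was mapped by CUT&RUN, in which an antibody brings a nuclease to the mark and the released DNA is sequenced.

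The cells were mouse prospermatogonia, fetal male germ cells that have stopped dividing, sorted at E17.5 by an Oct4-GFP reporter that all 3 genotypes carried. The tested genotypes were Tet1-/- (KO), which lacks the 5-methylcytosine oxidase TET1, and Tet1HxD/HxD (HxD), an allele known to disable the catalytic site. Both were set against Tet1+/+ (WT). Each genotype had 3 H3K4me3 libraries of 4000 nuclei each, called biological replicates in the labels, which do not say whether a replicate was 1 embryo or a pool. The 9 matching IgG samples were not analysed here.

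Retinol is oxidised to retinal by enzymes such as RDH10, and retinal to retinoic acid by the ALDH1A enzymes. Retinoic acid binds the receptors RARA, RARB and RARG, which pair with an RXR partner on direct repeats of a short hexamer in DNA, and CYP26 enzymes degrade it. In the fetal mouse testis, CYP26B1 from the somatic cells keeps retinoic acid away from germ cells, which would otherwise switch on meiotic genes such as Stra8.

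The libraries differed in how much was called. The lists held 69901 to 80232 peaks in KO, 49624 to 67925 in HxD and 83586 to 128701 in WT. KO replicate 1 stood apart from the other KO libraries, with a mean covered length of 1680 bp over the 16000 promoters tested against 2187 and 2382 bp, and WT replicate 3 had the most peaks. Promoter peaks were present in at least 3 libraries at 9 of 10 germ cell marker genes and 9 of 10 Sertoli markers. The same held for 7 of 10 Leydig or interstitial markers, 6 of 8 endothelial or blood markers and 73.1% of all coding genes. Marks of somatic genes were in the peak lists too, with the Leydig or interstitial and the endothelial or blood markers near the share of all genes. Tet1 itself had a promoter peak in all 9 libraries, covering 2732, 3331 and 4851 bp in KO, 3495, 3260 and 2580 bp in HxD and 2570, 2415 and 3315 bp in WT. That promoter length does not test the alleles.

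RefSeq promoters of GRCm38.p6, the assembly of mm10, run from 250 bases before to 50 bases after a start, and they were available for 8 of the 10 genes, 13 promoters in all. Rarb and Cyp26a1 are shown because each holds a DR5, a direct repeat of any of the hexamers AGGTCA and GGGTCA, or else AGTTCA and also GGTTCA, with a spacer of 5 bases, searched on both strands. The capitals mark that repeat.
Rarb (chr14:16575427-16575726, minus strand): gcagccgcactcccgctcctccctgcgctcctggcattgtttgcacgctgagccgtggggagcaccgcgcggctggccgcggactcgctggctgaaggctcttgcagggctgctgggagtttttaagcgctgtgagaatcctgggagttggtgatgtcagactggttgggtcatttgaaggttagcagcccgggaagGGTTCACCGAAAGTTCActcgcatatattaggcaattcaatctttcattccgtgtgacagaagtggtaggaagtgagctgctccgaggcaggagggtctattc
Cyp26a1 (chr19:37697558-37697857, plus strand): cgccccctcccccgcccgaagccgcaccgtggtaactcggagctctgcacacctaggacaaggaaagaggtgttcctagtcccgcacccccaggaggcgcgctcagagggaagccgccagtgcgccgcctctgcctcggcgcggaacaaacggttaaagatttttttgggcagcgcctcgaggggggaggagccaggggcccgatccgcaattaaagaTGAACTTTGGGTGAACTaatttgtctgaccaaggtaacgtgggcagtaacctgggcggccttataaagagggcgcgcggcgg
The Rarb repeat, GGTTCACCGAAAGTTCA, lies on the strand of the gene from 53 to 37 bases before the start. In Cyp26a1 the letters TGAACTTTGGGTGAACT, from 32 to 16 bases before the start, are the reverse complement of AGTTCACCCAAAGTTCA. A DR5 match was in 32 of 32851 mouse promoters (0.0974%), and 2 of the 13 member promoters were among these. Repeats with a spacer of 1 base (0.222% of all promoters) or 2 bases (0.268%) were in none of the 13.

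Aldh1a2, Rara and Aldh1a1 are shown because they span the range of CpG content among the members, and the capitals mark CpG.
Aldh1a2 (chr9:71215539-71215838, plus strand): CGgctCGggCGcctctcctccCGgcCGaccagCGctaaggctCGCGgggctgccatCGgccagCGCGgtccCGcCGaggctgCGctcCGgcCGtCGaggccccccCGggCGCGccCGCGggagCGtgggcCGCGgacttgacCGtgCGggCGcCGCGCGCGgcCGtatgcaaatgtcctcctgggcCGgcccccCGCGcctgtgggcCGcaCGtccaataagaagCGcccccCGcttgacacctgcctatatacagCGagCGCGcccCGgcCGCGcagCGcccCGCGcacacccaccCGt
Rara (chr11:98937446-98937745, plus strand): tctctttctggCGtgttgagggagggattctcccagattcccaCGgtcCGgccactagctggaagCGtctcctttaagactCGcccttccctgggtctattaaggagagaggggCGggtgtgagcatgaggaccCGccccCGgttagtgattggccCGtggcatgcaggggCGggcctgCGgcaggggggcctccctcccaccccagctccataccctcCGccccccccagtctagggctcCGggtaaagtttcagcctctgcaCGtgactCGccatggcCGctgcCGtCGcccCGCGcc
Aldh1a1 downstream start (chr19:20601718-20602017, plus strand): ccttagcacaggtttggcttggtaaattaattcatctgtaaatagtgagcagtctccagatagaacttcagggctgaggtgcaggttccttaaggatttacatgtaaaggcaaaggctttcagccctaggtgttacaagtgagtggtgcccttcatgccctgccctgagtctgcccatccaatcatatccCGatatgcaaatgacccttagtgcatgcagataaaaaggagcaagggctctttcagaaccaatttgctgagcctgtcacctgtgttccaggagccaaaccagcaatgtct
The Aldh1a2 promoter held 50 CpG, against a median of 7, and 99.3% of mouse promoters held 50 or fewer. Cyp26a1 held 26, Rara 20 and Rarb 17. Both Aldh1a1 promoters were poor in CpG, with 3 at the upstream start and 1 at the downstream start printed above.

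At the marked gene ends, 7 of the 10 members carried promoter peaks in every one of the 9 libraries: Rara, Rarg, Aldh1a2, Aldh1a3, Rdh10, Cyp26a1 and Cyp26c1. Over all coding genes the share was 59.6%. A promoter peak here is a peak within 1 kb of the marked end, which for Rara and Cyp26c1 lies away from the annotated starts. Cyp26b1 had a promoter peak in 2 libraries, and Rarb and Aldh1a1 had none at either gene end, so these 3 were left out of the promoter test. None of the 7 changed past the threshold in KO or in HxD against WT (limma, Benjamini-Hochberg adjusted p under 0.05 over 16000 genes). The background was 0.00625% called in KO against WT, which is 1 gene, and 0% in HxD against WT. Without adjustment, p was under 0.05 for 1192 genes lower and 1082 higher in KO, and for 1446 lower and 280 higher in HxD. With every library shifted to a common mean covered length (called centred from here on) the calls were 281 lower and 183 higher in KO and 43 lower and 12 higher in HxD, and the members' adjusted p stayed above 0.05. The unadjusted split also depended on scaling. When centred it was 1722 lower and 1601 higher in KO and 1211 lower and 1125 higher in HxD, and with peak lists of equal length it was 523 lower and 2590 higher in KO and 493 lower and 1567 higher in HxD. Without KO replicate 1 there were 3 calls in KO and 25 in HxD.

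**Figure D1:**
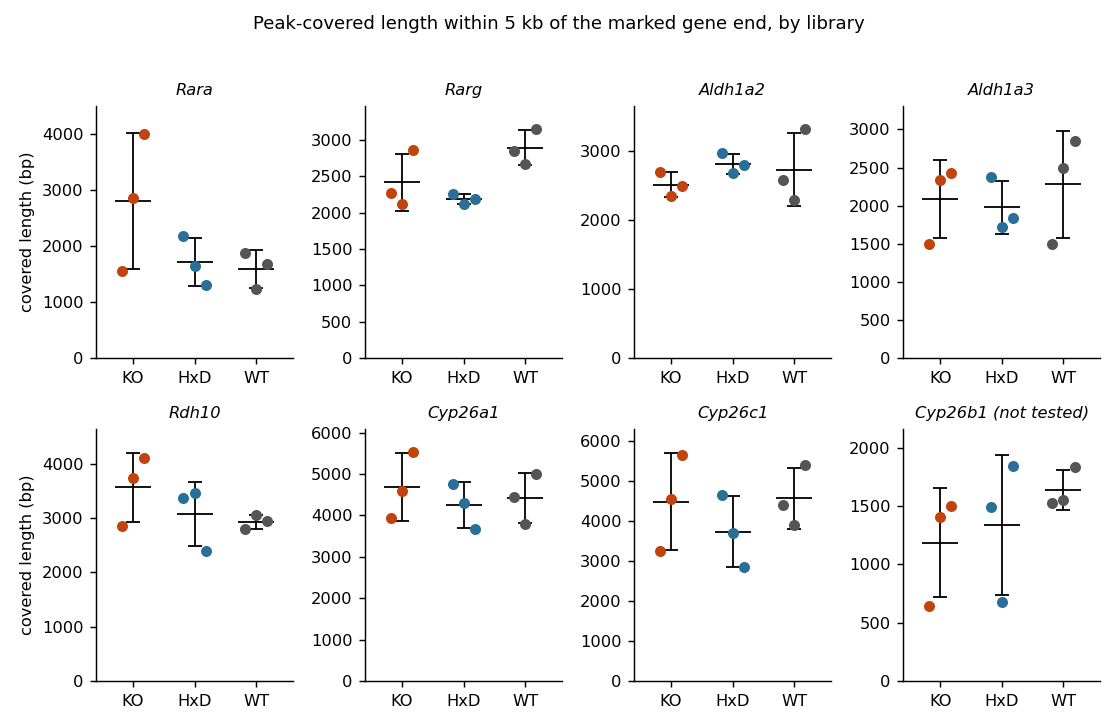
Peak-covered length (bp, y axis) within 5 kb of the marked gene end in each library, for 7 tested genes and Cyp26b1, which was not tested. Points are replicates 1 to 3 from left to right within KO, HxD and WT, and the bars are the mean ± SD (n = 3). The widest gap between means is at Rara, 2805 bp in KO against 1596 bp in WT, with overlapping libraries.

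Of the 2 receptors tested at the marked end, Rara had the larger difference. RARA is the receptor form expressed most broadly, and its gene (chromosome 11, 98927800 to 98974942) has annotated starts inside the gene model. Its marked end at 98927800 lies 9.9 kb before the first of these, at 98937696, and the window there also takes in part of the neighbouring gene Cdc6. Covered length at the marked end was 1562, 2863 and 3991 bp in KO, 2177, 1652 and 1312 bp in HxD and 1884, 1226 and 1679 bp in WT, each in the order of replicates 1 to 3, which is kept throughout. KO replicates 2 and 3 were above every WT library and KO replicate 1 was among them. The difference of KO minus WT was 1209 ± 496 bp (SE, unadjusted p = 0.0283, limma adjusted p = 0.291), and that of HxD minus WT was 117 ± 496 bp (adjusted p = 0.96). Without KO replicate 1, KO minus WT was 1831 bp (adjusted p = 0.0929), and without KO replicate 3 it was 616 bp (adjusted p = 0.662).

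At the annotated start of Rara itself, covered length within 5 kb was 3627, 4468 and 5755 bp in KO, 3653, 3209 and 3609 bp in HxD and 2562, 2304 and 3645 bp in WT. KO replicate 1 was just below the highest WT library, and the other KO libraries were above all WT libraries. KO averaged 4617 ± 1072 bp and WT 2837 ± 712 bp (SD, n = 3 each), a difference of 1780 ± 556 bp (SE, adjusted p = 0.196 over 13409 starts), which passed when libraries were centred (1719 bp, adjusted p = 0.0348) and not otherwise. The start 2.015 kb further on had all KO libraries above all WT libraries, with a difference of 1878 ± 593 bp (adjusted p = 0.201, and 0.0372 when centred), but its window shares most of its DNA with the first. Complete separation with KO above WT was seen at 9.02% of all starts, and 0.0298% of starts were called in KO and 0% in HxD. At the innermost start, at 98964872, covered length was 1879, 4142 and 5144 bp in KO, 3011, 3316 and 2986 bp in HxD and 3113, 3098 and 3150 bp in WT, with KO on both sides of WT.

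Inside the Rara locus 6 regions, made by merging the peaks of all libraries, had a peak in at least 3 of them and could be tested. The region from 98940026 to 98942856, just inside the gene from the first start, covered 1611, 1649 and 2676 bp in KO, 918, 1209 and 1030 bp in HxD and 1522, 399 and 1151 bp in WT. Every KO library was above every WT library there, as in 2.39% of all regions, and the difference of 955 bp did not pass (adjusted p = 0.0875 over 81071 regions). Over the whole locus (the gene with 5 kb on either side) covered length was 8232, 12092 and 15920 bp in KO, 9417, 8778 and 8577 bp in HxD and 8361, 7255 and 10138 bp in WT. The locus difference of KO minus WT was 3497 ± 1839 bp (SE, adjusted p = 0.343), 5421 bp without KO replicate 1 (adjusted p = 0.139) and 1577 bp without KO replicate 3 (adjusted p = 0.739).

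Fold is the authors' enrichment of a peak summit over background. The highest within 5 kb of the marked end of Rara was 11.8, 11.3 and 23.3 in KO, 19.3, 10.7 and 10.4 in HxD and 10.8, 4.87 and 8.7 in WT. Within their own libraries these values ranked at percentiles 28.2 to 66.9 of the tested genes in KO, 38.2 to 81.5 in HxD and 8.61 to 61.2 in WT. The order was not the same in the region over the first annotated start, 98936002 to 98939144. The highest fold there was 18.2, 21.6 and 7.01 in KO, 18.6, 15.3 and 8.08 in HxD and 10.7, 10.1 and 16.5 in WT. KO replicate 3, the highest library at the marked end, was the lowest there. Fold values depend on the background of each library and are given without a test.

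Rarb, whose transcription is itself induced by retinoic acid through the repeat printed above, has a gene model of 651 kb (chromosome 14, 16430839 to 17082331). Its annotated start at 16575476 lies 145 kb from the nearer gene end, and the marked-end rule therefore missed it. Every library had peaks in the merged region that holds this start, 16574072 to 16576130, and they covered 1165, 2059 and 1466 bp in KO, 1470, 1255 and 1403 bp in HxD and 1074, 1307 and 1319 bp in WT. The merged region spans the DR5 letters. Its summit folds were 10.3, 12.3 and 20.9 in KO, 11.8, 7.62 and 12.1 in HxD and 11.6, 9.44 and 18.2 in WT, with overlap among all genotypes. Within 5 kb of the start the difference was 73 ± 387 bp in KO minus WT (adjusted p = 0.954) and -220 ± 387 bp in HxD minus WT (adjusted p = 0.893).

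The rest of the Rarb locus held 11 further regions present in at least 3 libraries. Covered length over the whole locus was 6804, 9683 and 9497 bp in KO, 8129, 2678 and 6330 bp in HxD and 8703, 6717 and 13348 bp in WT. HxD replicate 2, the library with the fewest peaks, was the lowest and WT replicate 3, with the most peaks, the highest. The difference of HxD minus WT was -3877 ± 1732 bp (SE, unadjusted p = 0.0409, adjusted p = 0.241). It was -2360 bp without HxD replicate 2 and -1998 bp without WT replicate 3. One internal region, 16723368 to 16724984, covered 1112, 1369 and 748 bp in KO, 449, 421 and 595 bp in HxD and 1453, 1115 and 1389 bp in WT. All HxD libraries were below all others there (29.5% of all regions had HxD wholly below WT), with a difference from WT of -831 bp (adjusted p = 0.054).

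Rarg, the receptor of undifferentiated spermatogonia and of skeletal tissue, was the member whose HxD libraries separated from WT within 5 kb of the marked end. At its upstream start (chromosome 15, 102257522) covered length was 2276, 2125 and 2864 bp in KO, 2254, 2115 and 2194 bp in HxD and 2856, 2676 and 3153 bp in WT. All HxD libraries were below all WT libraries, which was so for 13.3% of the 16000 genes, and the difference of -707 ± 342 bp did not pass (unadjusted p = 0.0573, adjusted p = 0.478). The separation rested on further peaks in the window, 480 bp in WT replicate 2 alone and 400 bp in WT replicate 3 alone. In the merged region over the start, 102256257 to 102259408, WT covered 2856, 2196 and 2753 bp and overlapped HxD (-414 bp, limma adjusted p = 0.396). KO minus WT was -473 ± 342 bp (adjusted p = 0.553), with KO replicate 3 inside the WT range. At the second start, 11 kb downstream at 102246500, the order was not the same: 2527, 3995 and 6833 bp in KO, 4711, 4522 and 3283 bp in HxD and 4930, 2640 and 4209 bp in WT. KO spanned the whole range there, and neither difference passed (525 ± 903 bp in KO, adjusted p = 0.836, and 246 ± 903 bp in HxD, adjusted p = 0.953).

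The genes with breadth most like that of Rara over the 9 libraries were Atmin and Cmc2, which share 1 promoter (Pearson's r = 0.977), and Csnk1g3 (0.961). For Rarg they were Cwh43 (0.966), Scn1a (0.959) and H2ab2 (0.957). These are the highest of 16000 correlations over libraries that share depth, and are a description only.

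**Figure D2:**
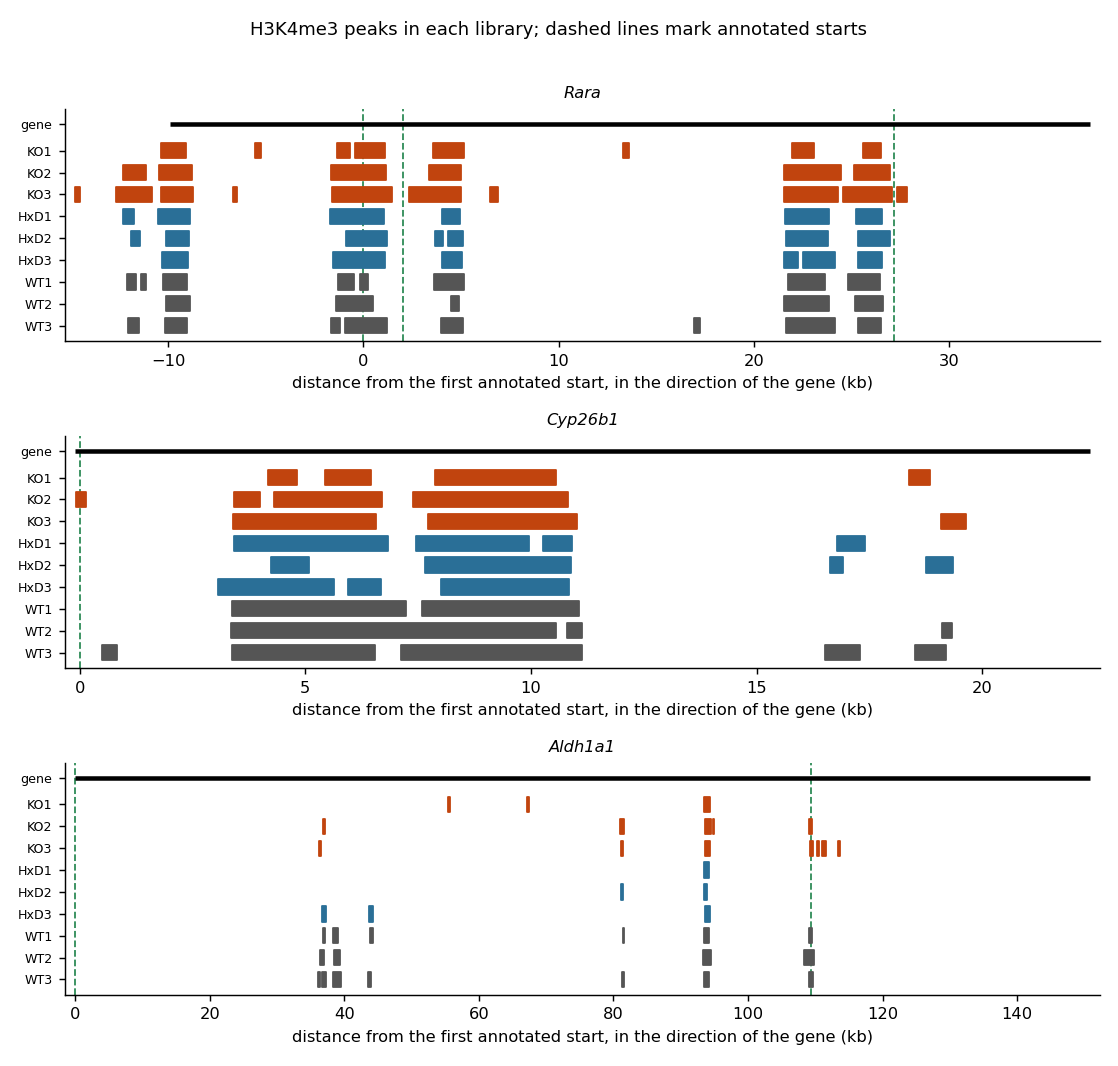
Positions of H3K4me3 peaks in each library (rows, KO above HxD above WT) over Rara, Cyp26b1 and Aldh1a1, with the distance in kb from an annotated start along the gene on the x axis. The black bar is the gene and dashed lines are annotated starts. At Rara, peaks lie around the first start and again just before the innermost one. Inside Cyp26b1 a block of separate peaks begins 3.06 kb from the start in HxD replicate 3 and further in for the other libraries. Aldh1a1 has short peaks only, the one at 38.3 kb in WT libraries alone.

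Of the synthesis genes, all but Aldh1a1 had a promoter peak in every library of every genotype. Rdh10, which makes the retinal that limits embryonic retinoic acid, is on chromosome 1 (16105882 to 16132550). Its promoter covered 2862, 3741 and 4107 bp in KO, 3380, 3468 and 2400 bp in HxD and 2800, 3054 and 2953 bp in WT. KO replicates 2 and 3 were above all WT libraries and KO replicate 1 was between them, a difference of 634 ± 447 bp (SE, adjusted p = 0.542). HxD minus WT was 147 ± 447 bp (adjusted p = 0.945). The highest fold was 9.41, 21.7 and 23.9 in KO, 23.9, 18.4 and 10.3 in HxD and 9.9, 9.11 and 7.13 in WT.

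Aldh1a2, the main synthesis enzyme of the early embryo and, in the adult testis, of germ cells (chromosome 9, 71215789 to 71296243), had an even promoter. It covered 2705, 2353 and 2494 bp in KO, 2977, 2685 and 2795 bp in HxD and 2580, 2298 and 3326 bp in WT. WT alone spanned the values of the others, and the differences were -217 ± 368 bp in KO (adjusted p = 0.829) and 84 ± 368 bp in HxD (adjusted p = 0.961). Its highest fold was 18.8, 25.7 and 22.7 in KO, 15, 14.3 and 13.3 in HxD and 12, 11.7 and 18.2 in WT. No other peak was within 5 kb of the gene in the mutants, since the whole-locus length was the same as the promoter length there.

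Aldh1a3 (chromosome 7, 66390892 to 66427477), a synthesis enzyme of eye and nasal development, covered 1494, 2332 and 2429 bp in KO, 2372, 1719 and 1838 bp in HxD and 1496, 2499 and 2851 bp in WT at its marked end. The groups overlapped (KO minus WT -197 bp, adjusted p = 0.864, and HxD minus WT -306 bp, adjusted p = 0.844). An internal region from 66405283 to 66406719 covered 569, 683 and 493 bp in KO, 967, 0 and 913 bp in HxD and 1184, 1380 and 1043 bp in WT. Every mutant library was below every WT library, as in 27.7% of all regions in KO and 29.5% in HxD. Neither difference passed (-621 bp in KO, adjusted p = 0.168, and -576 bp in HxD, adjusted p = 0.205).

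Aldh1a1 was the one member with a called difference. It is the synthesis enzyme of Sertoli cells in the mouse testis, and its gene spans 151 kb (chromosome 19, 20492583 to 20643463). Whole-locus covered length was 1415, 2445 and 3164 bp in KO, 795, 833 and 2030 bp in HxD and 2950, 3804 and 4246 bp in WT. All HxD libraries were below all WT libraries, as at 20.2% of all loci, and KO replicate 3 was inside the WT range. HxD averaged 1219 ± 702 bp and WT 3667 ± 659 bp (SD, n = 3 each), a difference of -2447 ± 547 bp (SE, limma adjusted p = 0.0293 over 18470 loci). KO averaged 2341 ± 879 bp, and KO minus WT was -1325 ± 547 bp (unadjusted p = 0.0287, adjusted p = 0.218). KO minus HxD did not pass for any of the 18470 loci, so the mutants were not shown to differ.

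The call at Aldh1a1 rested on few libraries. It was lost without HxD replicate 1 (-2235 bp, adjusted p = 0.0713), without HxD replicate 2 (-2254 bp, adjusted p = 0.183) and without WT replicate 3 (-2158 bp, adjusted p = 0.124). It was also lost with stricter peaks (-2076 bp, adjusted p = 0.128) and with lists of equal length (-1650 bp, adjusted p = 0.225), and it held when libraries were centred (-1794 bp, adjusted p = 0.0168). Over all loci 537 (2.91%) were called lower and 4 (0.0217%) higher in HxD, and 371 (2.01%) lower and 19 (0.103%) higher in KO. With libraries centred the split was 570 lower and 424 higher in HxD and 749 lower and 836 higher in KO.

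The regions inside Aldh1a1 that were low in the mutants were short and lay far from the upstream start. The region from 20530877 to 20532008, 38.3 kb inside the gene from the upstream start, had no peak in any of the 6 KO and HxD libraries, against 754, 784 and 1044 bp in WT. It reached the minimum of 3 libraries through WT alone, so these values are given with no test. The region over the downstream start, 20600975 to 20602320, covered 0, 472 and 471 bp in KO, 0, 0 and 0 bp in HxD and 407, 1346 and 707 bp in WT. Its difference of HxD minus WT was -820 ± 244 bp (adjusted p = 0.0474 over 81071 regions). Under the same filter, 9.81% of all regions were called lower in HxD. The call was lost in 10 of 11 alternatives (adjusted p 0.0352 to 0.364 over the 11). This region too reached the minimum of 3 libraries only with the WT libraries, where it was high, so its call cannot be used as support for a loss in HxD. The 8014 region calls in HxD, in either direction, fell to 0 without any 1 HxD replicate. Within 5 kb of that start, 20601968, covered length was 0, 472 and 1741 bp in KO, 0, 0 and 0 bp in HxD and 407, 1346 and 707 bp in WT, and neither difference passed (-82 ± 372 bp in KO, adjusted p = 0.944, and -820 ± 372 bp in HxD, adjusted p = 0.471). Another region, 20585949 to 20587057, had a peak in all 9 libraries, covering 827, 867 and 709 bp in KO, 795, 518 and 812 bp in HxD and 745, 1105 and 760 bp in WT, with overlap (adjusted p = 0.871 in KO and 0.677 in HxD). Its summit fold was 8.71, 6.04 and 9.85 in KO, 5.07, 7.77 and 7.46 in HxD and 19.8, 13.1 and 21.8 in WT.

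The 10 loci together held 86 regions, of which 42 could be tested. Over all 81071 regions the calls were 9866 lower and 384 higher in KO and 7955 lower and 59 higher in HxD, and with libraries centred they were 876 lower and 1231 higher in KO and 150 lower and 101 higher in HxD.

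Summed locus length of the somatic marker lists had lower ranges in the mutants. The ranges overlapped WT for Sertoli markers and, in KO, for Leydig or interstitial markers, and not otherwise. Mean locus length over all 18470 tested loci also had lower, overlapping ranges, 2359 to 3312 bp in KO, 2312 to 3089 bp in HxD and 2874 to 3862 bp in WT. Over the 10 Sertoli markers, summed locus length was 34908 to 53404 bp in KO, 33803 to 53918 bp in HxD and 51889 to 64160 bp in WT, and 6 of 10 differences were below 0 in KO and 9 of 10 in HxD, with none called. Of all loci, 55.2% were below 0 in KO and 73.3% in HxD, and 2.01% were called lower in KO and 2.91% in HxD. Over the 10 Leydig or interstitial markers the sums were 17158 to 29033 bp in KO, 18007 to 26649 bp in HxD and 28485 to 40067 bp in WT, with 7 of 7 tested below 0 in both mutants and 1 called lower in each. Cyp17a1, Hsd3b1 and Star, defining Leydig markers, had no promoter peak in any library. The same was so of the germ cell marker Piwil2 and the blood marker Ptprc, and no Sertoli marker lacked one in every library. Over the 8 endothelial or blood markers the sums were 16684 to 30139 bp in KO, 19961 to 30146 bp in HxD and 32507 to 43755 bp in WT, with 7 of 8 below 0 in KO, 1 of them called, and 8 of 8 in HxD, none called. Germ cell markers summed to 16959 to 28615 bp in KO, 14681 to 22403 bp in HxD and 15058 to 23598 bp in WT. Of their 10 differences, 3 were below 0 in KO and 5 in HxD, with none called. The part of somatic cells in the Aldh1a1 result was not tested, and fewer cells with a mark cannot be told apart from less of the mark per cell.

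**Figure D3:**
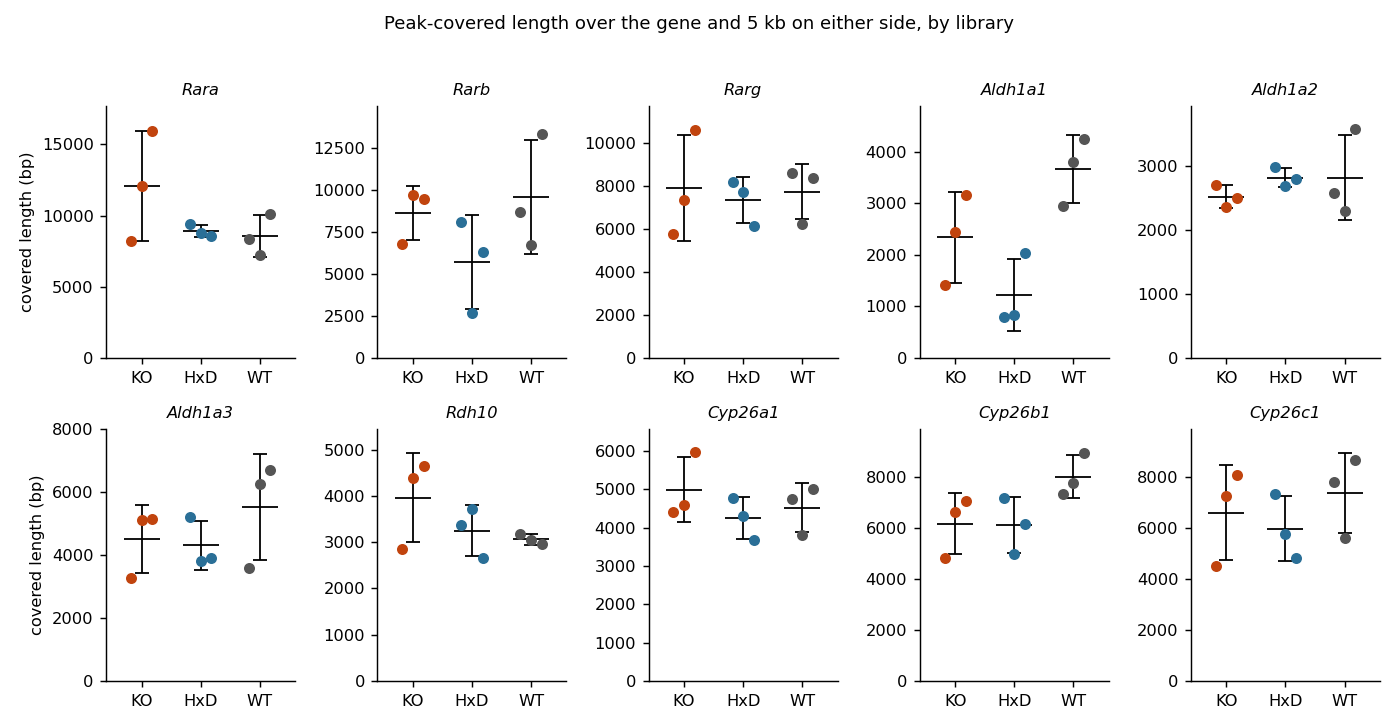
Peak-covered length (bp, y axis) over each of the 10 genes with 5 kb on either side, by library. Points are replicates 1 to 3 from left to right within KO, HxD and WT, and bars are the mean ± SD (n = 3). HxD libraries lie below WT libraries at Aldh1a1 (795 to 2030 bp against 2950 to 4246 bp), as at 20.2% of all loci. All mutant libraries lie below WT at Cyp26b1, as at 13.6% of loci in KO and 20.2% in HxD. Neither Cyp26b1 difference passed the test.

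Of the members, Cyp26a1 and Cyp26c1 had the longest marks at a marked end in every genotype. CYP26A1 is the enzyme most strongly induced by retinoic acid itself, and its gene is on chromosome 19 (37697738 to 37701536). Covered length at its promoter was 3931, 4583 and 5544 bp in KO, 4768, 4307 and 3677 bp in HxD and 4436, 3798 and 5005 bp in WT. The 3 genotypes overlapped, with differences of 273 ± 576 bp in KO (adjusted p = 0.867) and -162 ± 576 bp in HxD (adjusted p = 0.954). The region that holds the DR5 letters printed above, 37695308 to 37699896, covered 3023, 3284 and 4589 bp in KO, 3827, 3397 and 2643 bp in HxD and 3587, 2788 and 3869 bp in WT. The highest fold was 14.2, 20.5 and 24.9 in KO, 20.6, 22.5 and 14.4 in HxD and 12.5, 14.1 and 13.7 in WT, at percentiles 60.8 to 95.2 of their libraries.

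Cyp26c1, a related enzyme of the hindbrain and inner ear, lies beside Cyp26a1 (37685112 to 37693320). Its marked end, 37693320, is the opposite end of the gene from its annotated start. That end is 4.42 kb from the marked end of Cyp26a1, so its window takes in the Cyp26a1 promoter and the values of the pair are not independent. They were 3238, 4548 and 5642 bp in KO, 4634, 3694 and 2855 bp in HxD and 4383, 3899 and 5384 bp in WT, with overlap. The differences were -79 ± 674 bp in KO (adjusted p = 0.972) and -828 ± 674 bp in HxD (adjusted p = 0.707). At the annotated start of Cyp26c1 itself, 37685680, covered length was 1708, 3050 and 2960 bp in KO, 3186, 2248 and 2120 bp in HxD and 4276, 2246 and 4028 bp in WT. WT replicate 2 was within the HxD range, and the differences of -944 ± 556 bp in KO (adjusted p = 0.463) and -999 ± 556 bp in HxD (adjusted p = 0.578) did not pass.

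Cyp26b1 (chromosome 6, 84571414 to 84593908), the breakdown enzyme of the fetal testis, had almost no peak at its annotated start. KO replicate 2 had one of 228 bp there and WT replicate 3 one of 317 bp within 1 kb. A block of peaks, merged over all libraries, lay inside the gene instead, from 84582681 to 84590753. Its near edge, 3.06 kb from the start, came from HxD replicate 3 alone. Each library held separate peaks within the block, the longest in WT replicate 2, from 3.351 to 10.558 kb. The block covered 4353, 6419 and 6501 bp in KO, 6585, 4098 and 6154 bp in HxD and 7358, 7539 and 7153 bp in WT. All 6 mutant libraries were below all WT libraries, and the differences of -1592 ± 875 bp in KO (adjusted p = 0.238) and -1738 ± 875 bp in HxD (adjusted p = 0.209) did not pass. Such separation was at the background shares of regions given above, 27.7% in KO and 29.5% in HxD.

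Over the whole Cyp26b1 locus the covered length was 4823, 6647 and 7056 bp in KO, 7195, 4985 and 6154 bp in HxD and 7358, 7774 and 8955 bp in WT. The mutants again lay below WT without overlap, as did 13.6% of all loci in KO and 20.2% in HxD. KO minus WT was -1854 ± 1000 bp (adjusted p = 0.356) and HxD minus WT -1918 ± 1000 bp (adjusted p = 0.324). Without KO replicate 1 the KO difference was -1178 bp (adjusted p = 0.596). Cyp26b1 is expressed by Sertoli cells in the fetal mouse testis, and the Sertoli marker sums given above had lower, overlapping ranges in both mutants. The Leydig or interstitial and the endothelial or blood sums also had lower ranges in both, as did mean locus length over all loci. The part of somatic cells in the Cyp26b1 values was not tested. The highest fold within 5 kb of the marked end was 4.36, 16 and 7.15 in KO, 10.3, 9.23 and 11.2 in HxD and 13.4, 6.69 and 6.42 in WT.

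**Figure D4:**
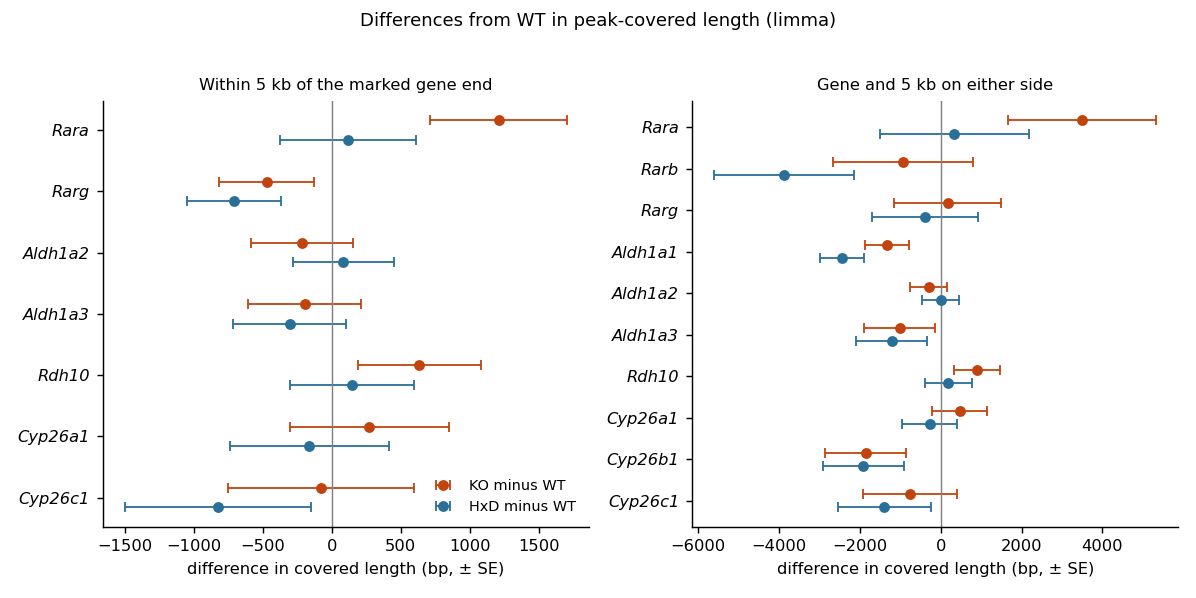
Differences in peak-covered length from WT (x axis, bp, ± SE from limma), KO above HxD for each gene, at the marked gene end for 7 genes and over the gene with 5 kb on either side for 10. HxD at Aldh1a1 over the locus (-2447 bp) is the only value with an adjusted p under 0.05.

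The whole-locus values of the other members overlapped between genotypes. Rarg covered 5794, 7371 and 10601 bp in KO, 8198, 7731 and 6142 bp in HxD and 8617, 6266 and 8365 bp in WT. Aldh1a3 covered 3275, 5125 and 5148 bp in KO, 5215, 3805 and 3921 bp in HxD and 3599, 6276 and 6716 bp in WT. Neither of these loci had a difference with an unadjusted p under 0.05. Rdh10 covered 2862, 4383 and 4648 bp in KO, 3380, 3718 and 2655 bp in HxD and 3180, 3054 and 2953 bp in WT, with a KO difference of 902 ± 574 bp (adjusted p = 0.436). Cyp26c1 covered 4484, 7243 and 8045 bp in KO, 7315, 5734 and 4801 bp in HxD and 7782, 5602 and 8640 bp in WT, and Cyp26a1 from 4419 to 5972 bp in KO, 3677 to 4768 bp in HxD and 3798 to 5005 bp in WT. Over the 10 loci the median difference was -524 bp in KO and -805 bp in HxD, against -96 and -370 bp over all 18470 loci. Called lower were 1 of 10 in HxD and 0 of 10 in KO, against 2.91% and 2.01% of all loci.

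In the wider pathway 52 further genes were followed, of which 39 had a promoter peak in at least 3 libraries. None of the 39 was called in either comparison, where the background was 0.00625% in KO and 0% in HxD. Unadjusted p was under 0.05 for 2 lower and 1 higher in KO and for 1 lower and 0 higher in HxD, and the backgrounds were 7.45% lower and 6.76% higher in KO and 9.04% and 1.75% in HxD. The median difference of the 39 was 59 bp in KO (all genes 45 bp) and -48 bp in HxD (all genes -125 bp).

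The RXR partners, with which every receptor pairs, all had promoter peaks. Rxra covered 3009, 3226 and 3057 bp in KO, 2139, 3266 and 2444 bp in HxD and 1936, 2242 and 2850 bp in WT. All KO libraries were above all WT libraries, as at 8.49% of genes, and the difference of 755 ± 396 bp did not pass (adjusted p = 0.404). Rxrb (adjusted p = 0.919 in KO and 0.974 in HxD) and Rxrg (0.602 and 0.985) overlapped between genotypes.

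Of the co-regulators, which bring histone deacetylases or acetyltransferases to the receptors, 9 of 10 differences were above 0 in KO and 10 of 10 in HxD, where 53.3% and 38.9% of all genes were. Their median differences were 584 and 425 bp. None was called. Tbl1x, a subunit of the NCOR corepressor, covered 2897, 3445 and 3871 bp in KO, 3015, 2425 and 2512 bp in HxD and 1395, 2544 and 2550 bp in WT (KO minus WT 1241 ± 423 bp, adjusted p = 0.214). All KO libraries were above all WT libraries, as at 8.49% of all tested genes, and HxD overlapped WT.

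Genes that respond to retinoic acid had differences of both signs. Stra8, the meiotic gatekeeper of germ cells, covered 2361, 3123 and 2793 bp in KO, 2758, 2522 and 1257 bp in HxD and 1833, 2010 and 2195 bp in WT. Its partner Meiosin, listed as Bhmg1, covered 2487, 2901 and 3759 bp in KO, 3187, 1950 and 819 bp in HxD and 2314, 1433 and 2341 bp in WT. At both genes all KO libraries were above all WT libraries, as at 8.49% of all tested genes, and HxD spanned WT. No difference passed (KO adjusted p = 0.423 and 0.403, HxD 0.926 and 0.986). Rec8, a meiotic cohesin, differed by 16 ± 285 bp in KO (adjusted p = 0.987) and by -338 ± 285 bp in HxD (adjusted p = 0.722).

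Hoxb1, a homeobox gene with a known retinoic acid response, covered 1530, 1892 and 1629 bp in KO, 1853, 1808 and 1485 bp in HxD and 2319, 2134 and 2409 bp in WT. It had every mutant library below WT, at -604 ± 293 bp in KO (adjusted p = 0.366) and at -572 ± 293 bp for HxD (adjusted p = 0.506). Wholly lower libraries were found at 9.07% of genes in KO and 13.3% in HxD. Nr2f2, an orphan nuclear receptor, differed by -1420 ± 710 bp in KO (adjusted p = 0.38) and by -1459 ± 710 bp in HxD (adjusted p = 0.48), with overlap.

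No transport or conversion gene passed the test. All 4 tested transport and binding genes (Rbp4, Crabp1, Crabp2 and Fabp5) were below 0 in both mutants, as were 46.6% of all genes in KO and 61.1% in HxD, and the smallest adjusted p was 0.712 in KO and 0.569 in HxD. Crabp2, which delivers retinoic acid to the receptors, had all HxD libraries (4674, 4072 and 4294 bp) below all WT libraries (5347, 4693 and 5862 bp), as at 13.3% of all tested genes. The retinol receptor Stra6 had no promoter peak at either gene end in any library and was not tested there. Its whole locus did hold peaks, on average 3079 bp in KO, 3358 bp in HxD and 5014 bp in WT. Neither locus difference passed (-1935 ± 801 bp in KO, limma adjusted p = 0.219, and -1656 ± 801 bp in HxD, adjusted p = 0.283). Lrat, which stores retinol as esters, had differences of -224 bp (KO, adjusted p = 0.757) and -158 bp (HxD, adjusted p = 0.889), and the retinal reductase Dhrs3 had differences of 962 bp (KO, adjusted p = 0.426) and 606 bp (HxD, adjusted p = 0.734). Sdr16c5, an enzyme of retinol oxidation, covered 0, 416 and 545 bp in KO, 444, 498 and 687 bp in HxD and 858, 911 and 997 bp in WT. Every mutant library was below WT (adjusted p = 0.251 and 0.583), as at 9.07% of all tested genes in KO and 13.3% in HxD.

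**Figure D5:**
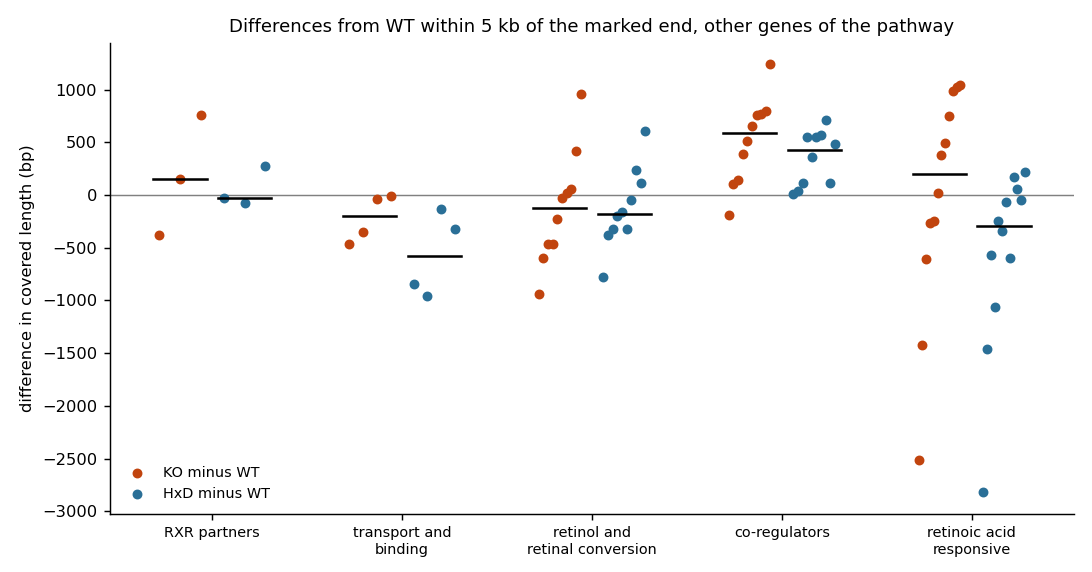
Difference in peak-covered length from WT (bp, y axis) at the promoters of 39 other pathway genes, grouped by role, with KO left of HxD. Points are genes and black bars the median of a group. Co-regulators lie mostly above 0 (medians 584 and 425 bp), transport and binding genes below 0, and no gene passed the test.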

How the data were processed

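H3K4me3 CUT&RUN libraries of 3 genotypes with 3 replicates each were analysed. The build, mm10, and the use of MACS2 2.1.0 and of Bowtie2 2.5.0 are on record per the submitters' processing notes. The authors deposited 1 narrow peak list per library, with a fold enrichment (a linear ratio over background) and a −log10 q value per peak. The control used for the peak calls was not stated. No read counts were used, so depth is unknown beyond the number of peaks.

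Genes came from RefSeq GRCm38.p6. Covered length at the marked end was fitted for the 16000 genes whose promoter held a peak in 3 or more libraries, and locus length for the 18470 genes covered in 3 or more, with limma 3.58.1 in R 4.3.3 (all 9 libraries, trend, Benjamini-Hochberg adjustment), tested on simulated data. Annotated starts and merged regions were fitted the same way, a choice made after seeing the data. The members and lists were chosen with earlier results of these data known. All members are named. Of the other pathway genes, 13 were always named, with any called gene and the 3 with the largest absolute moderated t in each comparison. Of these, 2 genes are not reported here. No pair of lists shared more than 6 identical peaks.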

Additional observations from a re-analysis of the deposited data

How the results depend on the processing

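With 3 libraries per genotype, every test had limited precision. Among 50 tested values of single genes, starts or regions, 600 of 670 alternative settings kept the direction and side of the threshold, 53 turned the direction, 15 lost a call and 2 gained one. The cause of these changes was not tested. Annotated starts and regions were added after seeing the data.

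For promoter length, 1 call in KO against WT became 464 when libraries were centred, 399 with lists of equal length (49624 peaks each, 36 lower and 363 higher), 73 with no filter and 5 at annotated starts, and 0 with the replicate block, stricter peaks (−log10 q of at least 5), a 2 kb window or only the 2 genotypes. HxD against WT went to 55 when centred, 2 with equal lists and 58 with no filter, KO against HxD to 1 with no filter, and the test over all 3 genotypes to 198, 97 and 58 under those settings. Leaving out 1 library gave 0 to 3 calls in KO against WT and 0 to 25 in HxD against WT, the 25 without KO replicate 1. For locus length, KO against WT had 390 calls, 1585 when centred, 213 with stricter peaks, 520 with equal lists (158 lower and 362 higher) and 314 with the replicate block. Without 1 library it had 59 to 534, with 59 without KO replicate 3, 83 without KO replicate 1, 140 without WT replicate 1 and 153 without WT replicate 3. HxD against WT had 541, 994 when centred, 219 with stricter peaks, 56 with equal lists and 471 with the replicate block, and 34 to 854 without 1 library. It had 34 without HxD replicate 2, 118 without HxD replicate 3, 154 without WT replicate 3, 242 without WT replicate 1, 305 without KO replicate 3 and 854 without WT replicate 2.

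Replicate numbers did not pair the libraries: same-numbered libraries correlated at -0.236 to 0.08, others at -0.109 to 0.175, and 1 of 9 correlated best with its own number. With the replicate block the region over the downstream Aldh1a1 start had an adjusted p of 0.0565, and region calls fell to 6008 in KO and 3606 in HxD, against 10250 and 8014. Region calls in KO were 0 without KO replicate 1 or KO replicate 3, and in HxD 0 without any 1 HxD replicate.

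Turned differences, none of them called, were as follows. With equal lists, KO minus WT was 6 bp at Rarg, 19 bp at Aldh1a2 (also over the locus) and 356 bp at Cyp26c1, and HxD minus WT was 248 bp at Cyp26a1 (also over the locus) and 344 bp over the Rarg locus. Cyp26c1 in KO was 328 bp with stricter peaks and 141 bp in the 2 kb window, and the Rarg locus in KO -169 bp with stricter peaks. When centred, HxD was 261 bp over the Rarg locus, 387 bp over the Cyp26a1 locus and 108 bp at the innermost Rara start.

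Leaving out 1 library turned promoter differences within these ranges: Rara in HxD -114 to 318 bp, Aldh1a2 -436 to 78 in KO and -134 to 380 in HxD, Aldh1a3 in KO -590 to 98, Rdh10 in HxD -46 to 488, Cyp26a1 -156 to 650 in KO and -470 to 134 in HxD, and Cyp26c1 in KO -662 to 540. Over the locus they were Rara in HxD -325 to 1116, Rarb in KO -2364 to 951, Rarg -1167 to 1237 in KO and -1134 to 215 in HxD, Aldh1a2 -557 to 78 and -255 to 380, Rdh10 in HxD -45 to 487, Cyp26a1 -16 to 760 and -626 to 20, and Cyp26c1 in KO -1620 to 303. At annotated starts they were -110 to 1523 (KO) and -122 to 43 (HxD) at the innermost Rara start, the downstream Rarg start -665 to 1488 and -397 to 748, and Rarb -280 to 478 and -481 to 186.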
